A study of Mus musculus with 6 samples.

Results

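Myeloid priming is the low-level expression of receptors, transcription factors and early granule genes of the granulocyte and monocyte lineages in cells that have not yet left the stem or progenitor pool. The 10 genes described here stand for it: the growth factor receptors Csf1r, Csf2ra, Csf2rb and Csf3r, the transcription factors Spi1, Cebpa, Cebpb and Irf8, and the granule protein genes Mpo and Prtn3. They were taken as every probe set whose single gene symbol in the array annotation is one of these names, without regard to its values. That gave 10 genes of 18193 with a symbol of their own, and 16 probe sets of 45037. All 10 genes had at least 1 probe set. Of the 16, 11 probe sets from 8 genes lay above log2 4 on at least 3 arrays and were tested. The other 5, which include the only probe sets of Cebpa and Mpo, did not.

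The cells were hematopoietic stem cells, negative for Lineage markers and positive for Sca-1 and c-Kit, taken from marrow of male C57Bl/6 (CD45.1) mice 10 weeks of age. Both fractions come from the side population, which is defined by efflux of a DNA-binding dye. Lower-SP cells were sorted from its lower part and Upper-SP cells from its upper part. Each fraction was measured on 3 arrays of biotin-labelled RNA that had gone through 2 rounds of in vitro transcription. Mice were pooled and sorted on 3 separate days, with a purity above 98% on a second pass through the sorter, and the labels do not tie a pool to an array. The labels give no treatment or mutation, and Lower-SP is set against Upper-SP. Levels are log2 expression values as deposited, a difference is the Lower-SP mean minus that of Upper-SP, and means are given ± SD with n = 3 in each fraction.

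The receptors sit at the cell surface and pass survival and growth signals from colony-stimulating factors to JAK kinases, STAT factors and other kinases. Spi1 encodes PU.1, an ETS-family factor that binds the promoters of many myeloid receptor and granule genes, often beside C/EBP proteins. The granule proteases and myeloperoxidase are among the first proteins that committed granulocyte and monocyte progenitors make in quantity.

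Across tested probe sets, Pearson's r between arrays was 0.952 to 0.991 inside a fraction and 0.911 to 0.938 from one fraction to the other. Precision is limited by having 3 arrays in each. Of 15 annotated genes of a list of stem and early progenitor markers, 14 were tested, and only Cd48 stayed under log2 4. Mature neutrophil markers stood apart on 2 arrays, with 4 of 9 tested genes higher in Lower-SP, 0 lower, and 1 higher when those arrays were omitted. Among all tested genes at their brightest probe set, 7.05% were called higher and 20.7% lower. At an unadjusted p under 0.05 (limma), 6 of the 9 markers were higher and 2 lower, the 2 being Lyz2 and Anxa1 (both -0.67, not called). At that level 3965 of all 9460 tested genes passed, in either direction. Of the 4 called, Lcn2 and Chil3 lay under log2 4 on every Upper-SP array and were tested only through their Lower-SP values, so they could not have been called lower. The average log2 level over the 9 genes (of 16 annotated) was 10.34, 9.78 and 6.89 on the Lower-SP arrays, against 6.73, 7.04 and 5.72 on the Upper-SP arrays. S100a8, a calcium-binding protein gene and 1 of the 4 called, read 13.19, 12.60 and 9.16 in Lower-SP, against 7.62, 7.87 and 6.95 in Upper-SP. The sort was for Lineage-negative, c-Kit-positive cells, with a stated purity above 98%, and the source of these transcripts was not tested. Results on the granulocyte and monocyte genes are also given after omitting Lower-SP replicates 1 and 2 jointly, where Lower-SP rests on replicate 3 alone and its spread is assumed to match that of Upper-SP. Fewer cells of a type and less RNA per cell cannot be told apart in such bulk samples.

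The promoters of the 3 genes that were lower in Lower-SP, Csf2ra, Csf3r and Prtn3, are shown because they moved the same way, with that of Mpo beside them as the other granule gene. Each is the 250 bases before the RefSeq start, from GRCm38.p6, written 5′ to 3′ on the gene's own strand: chr19:61228419-61228668 (minus strand) for Csf2ra, chr4:126024409-126024658 (plus) for Csf3r, chr10:79879417-79879666 (plus) for Prtn3 and chr11:87793534-87793783 (plus) for Mpo. Capitals mark the PU.1 letters GAGGAA and the C/EBP half-site letters TTGCG, on either strand.
Csf2ra: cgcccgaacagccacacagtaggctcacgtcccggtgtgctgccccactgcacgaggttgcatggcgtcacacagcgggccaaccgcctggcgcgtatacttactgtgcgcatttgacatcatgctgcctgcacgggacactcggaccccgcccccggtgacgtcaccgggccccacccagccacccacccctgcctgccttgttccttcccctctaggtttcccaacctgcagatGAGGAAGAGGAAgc
Csf3r: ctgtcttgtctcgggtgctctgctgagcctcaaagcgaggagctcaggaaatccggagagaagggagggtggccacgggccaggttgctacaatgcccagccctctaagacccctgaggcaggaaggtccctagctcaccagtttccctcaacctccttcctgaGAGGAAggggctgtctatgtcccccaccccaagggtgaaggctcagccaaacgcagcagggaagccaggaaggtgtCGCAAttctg
Prtn3: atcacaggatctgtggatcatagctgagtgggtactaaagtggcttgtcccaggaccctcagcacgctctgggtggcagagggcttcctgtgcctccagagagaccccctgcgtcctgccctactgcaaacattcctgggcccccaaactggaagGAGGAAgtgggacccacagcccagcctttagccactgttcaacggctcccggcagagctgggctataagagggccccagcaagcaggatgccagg
Mpo: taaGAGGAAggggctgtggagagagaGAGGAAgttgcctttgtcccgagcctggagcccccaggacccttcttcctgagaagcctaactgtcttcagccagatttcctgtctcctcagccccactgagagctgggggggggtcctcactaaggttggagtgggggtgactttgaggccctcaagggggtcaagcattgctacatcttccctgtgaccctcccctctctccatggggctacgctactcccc
RefSeq promoter windows were matched for 7 of the 10 genes (8 windows of 300 bases, including 50 after the start); Csf1r, Csf2rb and Spi1 had none. GAGGAA occurred 2 times in the Csf2ra window, at bases -14 to -9 and -8 to -3 from the start, and once each in those of Csf3r (-86 to -81) and Prtn3 (-95 to -90). Mpo held it at -247 to -242 and -224 to -219. TTGCG occurred once in the Csf3r window (-10 to -6, minus strand) and once in that of Cebpa (-185 to -181). The windows of Cebpb and Irf8 held neither, and the Runx letters TGTGGT were in none of the 8. Over all 32851 windows, 28.3% held GAGGAA, 17.4% held TTGCG and 16.8% held TGTGGT. A match of letters is a description, not a measured binding site.

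The members changed in both directions. Of the 11 tested probe sets, 1 was higher in Lower-SP (Csf1r) and 3 were lower (Csf2ra, Csf3r and Prtn3) at an adjusted p under 0.05 (limma, Benjamini-Hochberg over 19613 probe sets). Of all tested probe sets, 10.7% were higher and 17.5% were lower, and 28.1% were called either way, so 4 of 11 called members is not far from the share of the whole array. The members' median difference was -0.56, against -0.14 over all tested probe sets. In 6 of the 11 the Lower-SP and Upper-SP values did not overlap, where 46.1% of all tested probe sets did not. Of these 6, 1 had every Lower-SP array above every Upper-SP array and 5 had every one below, against 18.2% and 27.9% of all tested probe sets. The split over all calls depended on scaling: 37.9% of the called probe sets were higher with the deposited values and 51.5% with cyclic loess, which moved the median difference of all tested probe sets by 0.10.

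**Figure D1:**
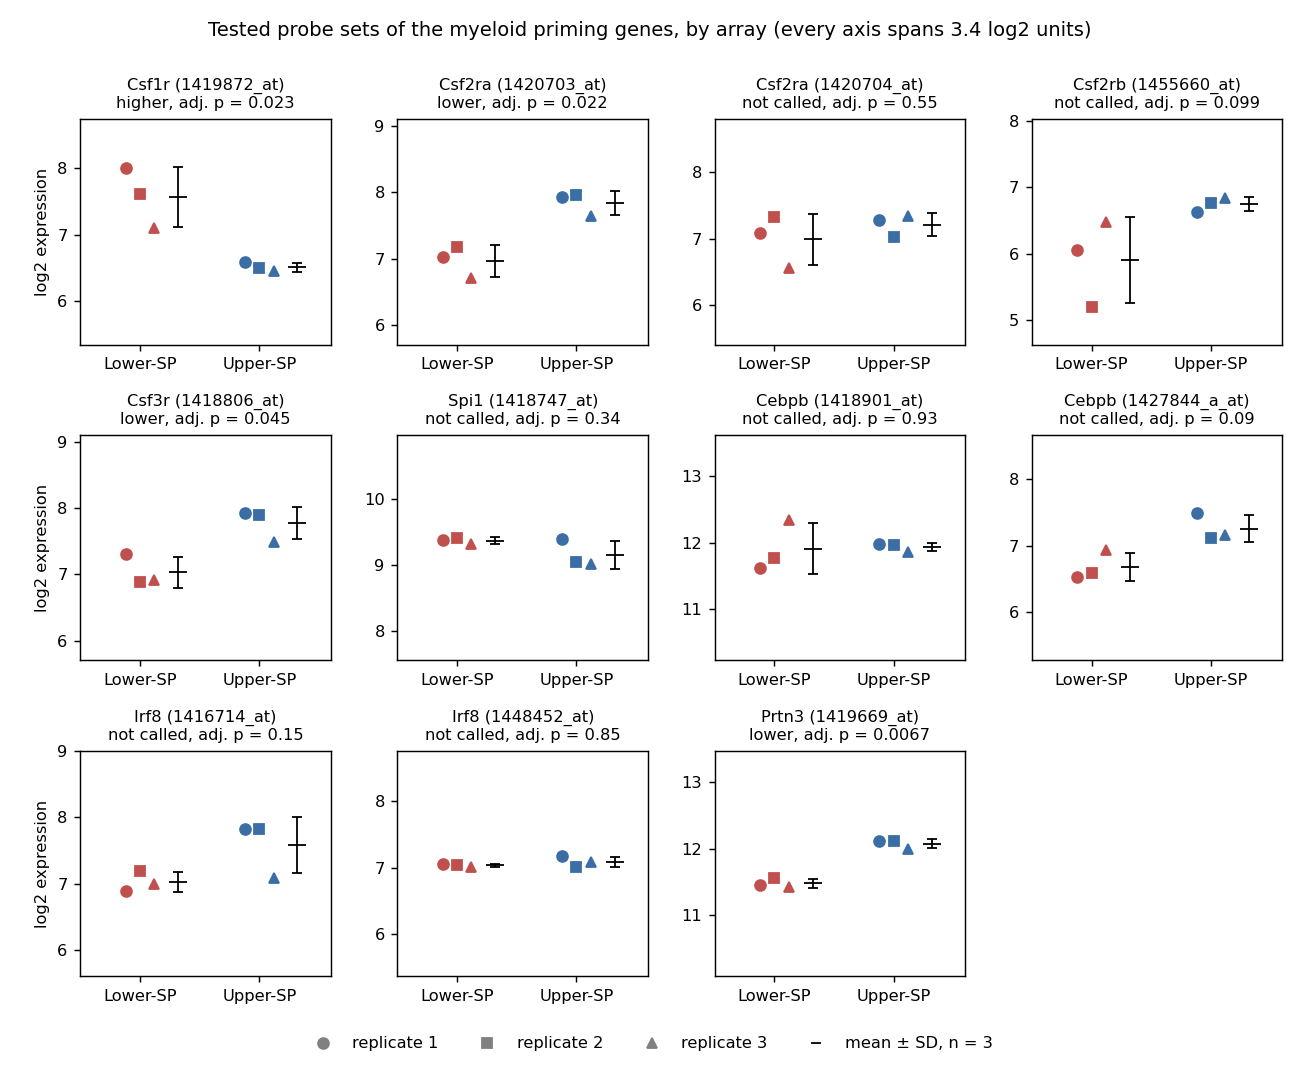
Log2 expression on each array for the 11 tested member probe sets, Lower-SP (red) left of Upper-SP (blue), with the mean and SD of 3 arrays in black; every axis spans the same number of log2 units. Csf1r sits higher in Lower-SP, while Csf2ra (1420703_at), Csf3r and Prtn3 sit lower with no overlap, and Spi1 and the bright Cebpb probe set overlap.

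Among the receptors, Csf1r was the 1 member that was higher in Lower-SP. Csf1r encodes the receptor tyrosine kinase for macrophage colony-stimulating factor and interleukin-34, which drives monocyte and macrophage development. Its tested probe set, 1419872_at, read 8.002, 7.605 and 7.103 on the Lower-SP arrays, against 6.585, 6.496 and 6.449 on the Upper-SP arrays. Every Lower-SP array was above every Upper-SP array, and the Upper-SP values lay close together. The means were 7.57 ± 0.45 in Lower-SP and 6.51 ± 0.07 in Upper-SP, a difference of 1.06 (SE 0.27, 2.08-fold, adjusted p = 0.023, limma). The Lower-SP arrays with the highest Csf1r, replicates 1 and 2, are those with the highest neutrophil markers. The part of other cells in the Csf1r difference was not tested. Without both of those replicates the difference was 0.59 (adjusted p = 0.17).

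The other Csf1r probe sets gave little signal. Probe set 1419873_s_at read 4.14, 3.39 and 4.07 in Lower-SP, against 3.41, 3.28 and 3.29 in Upper-SP, and was above log2 4 on 2 arrays only. Probe set 1423593_a_at stayed between 2.52 and 2.63 on all 6 arrays. The call thus rests on 1 probe set, for which the annotation table used here names no source sequence. The call was lost on leaving out Lower-SP replicate 1 (0.84, adjusted p = 0.065), Lower-SP replicate 2 (1.04, 0.070), Upper-SP replicate 1 (1.10, 0.084) or Upper-SP replicate 2 (1.05, 0.074), although its direction held.

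No monocyte and macrophage marker was called. Of 16 listed, 15 were annotated and 6 tested, with 0 called in either direction (limma). Among all tested genes at their brightest probe set, 7.05% were higher and 20.7% lower, and 3965 of 9460 had an unadjusted p under 0.05. The average log2 level of the 6 markers was 7.28, 6.78 and 4.97 in Lower-SP, against 6.83, 7.37 and 5.28 in Upper-SP. Of the 15, 7 were under log2 4 on every array, among them the chemokine receptors Ccr2 and Cx3cr1, the Fc receptor Fcgr1 and the macrophage surface gene Adgre1. Others were well above it. Cd14, a lipopolysaccharide co-receptor of monocytes, read 8.57, 8.49 and 9.12 in Lower-SP, against 9.59, 9.72 and 8.68 in Upper-SP. Lgals3, a galectin of macrophages and the 1 gene with an unadjusted p under 0.05, read 7.52, 7.59 and 5.76 in Lower-SP, against 5.93, 5.78 and 3.39 in Upper-SP (1.92, adjusted p = 0.094). The complement gene C1qb read 8.94, 8.43 and 5.66 in Lower-SP, against 7.54, 8.56 and 7.47 in Upper-SP. With Lower-SP replicates 1 and 2 omitted, 0 of the 6 were higher and 1 was lower. These markers were singled out after their values were seen.

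Csf2ra was lower in Lower-SP at 1 of its 2 tested probe sets. It encodes the chain of the granulocyte-macrophage colony-stimulating factor receptor that recognises the ligand. Probe set 1420703_at read 7.02, 7.17 and 6.71 in Lower-SP, against 7.93, 7.96 and 7.64 in Upper-SP. The fractions did not overlap, and the difference was -0.88 (SE 0.22, 1.84-fold, adjusted p = 0.022, limma). The other probe set, 1420704_at, annotated to the same source sequence, read 7.09, 7.32 and 6.56 in Lower-SP, against 7.28, 7.02 and 7.34 in Upper-SP. Those fractions overlapped and the difference was -0.22 (95% interval -0.81 to 0.37, adjusted p = 0.55). At the first probe set the call was lost without Lower-SP replicate 1 (-0.90, adjusted p = 0.053), Upper-SP replicate 1 (-0.83, 0.10) or Upper-SP replicate 2 (-0.82, 0.084), and it was -1.14, just over the p threshold, once Lower-SP replicates 1 and 2 were both omitted.

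Csf2rb encodes the common beta chain that carries the signal for granulocyte-macrophage colony-stimulating factor, interleukin-3 and interleukin-5. Its tested probe set, 1455660_at, read 6.05, 5.20 and 6.47 in Lower-SP, against 6.63, 6.77 and 6.84 in Upper-SP. All Lower-SP values were below all Upper-SP values, but they spread widely (SD 0.65, against 0.10 in Upper-SP). The difference of -0.84 (95% interval -1.62 to -0.06) did not pass adjustment (adjusted p = 0.099), and it passed without Lower-SP replicate 3 (-1.12, adjusted p = 0.027). With Lower-SP replicates 1 and 2 omitted jointly it was -0.28. The second probe set, 1421326_at, stayed between 2.59 and 2.69. Csf2rb2, the mouse paralog whose product serves interleukin-3 alone, read 4.57, 5.26 and 6.53 in Lower-SP, against 6.43, 5.98 and 6.77 in Upper-SP, without passing (-0.94, adjusted p = 0.18). The paralogs are close in sequence, and how far the probe sets tell them apart was not tested.

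Csf3r, the receptor for granulocyte colony-stimulating factor, the main growth factor of neutrophils, was lower in Lower-SP. It read 7.30, 6.89 and 6.91 in Lower-SP, against 7.930, 7.890 and 7.495 in Upper-SP. The fractions did not overlap, with Upper-SP replicate 3 closest to the Lower-SP values. The difference of -0.74 (SE 0.23, 1.67-fold) passed narrowly (adjusted p = 0.045, limma). It was negative in all 17 alternatives and passed in 6 of them. Among the scalings it was -0.65 with median centring (adjusted p = 0.056), -0.66 with quantile normalization (0.056) and -0.62 with cyclic loess (0.073). It also missed the threshold without Lower-SP replicate 1 (adjusted p = 0.051), Lower-SP replicate 2 (0.13), Lower-SP replicate 3 (0.068), Upper-SP replicate 1 (0.17) or Upper-SP replicate 2 (0.14), and after omitting Lower-SP replicates 1 and 2 jointly (0.10).

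**Figure D2:**
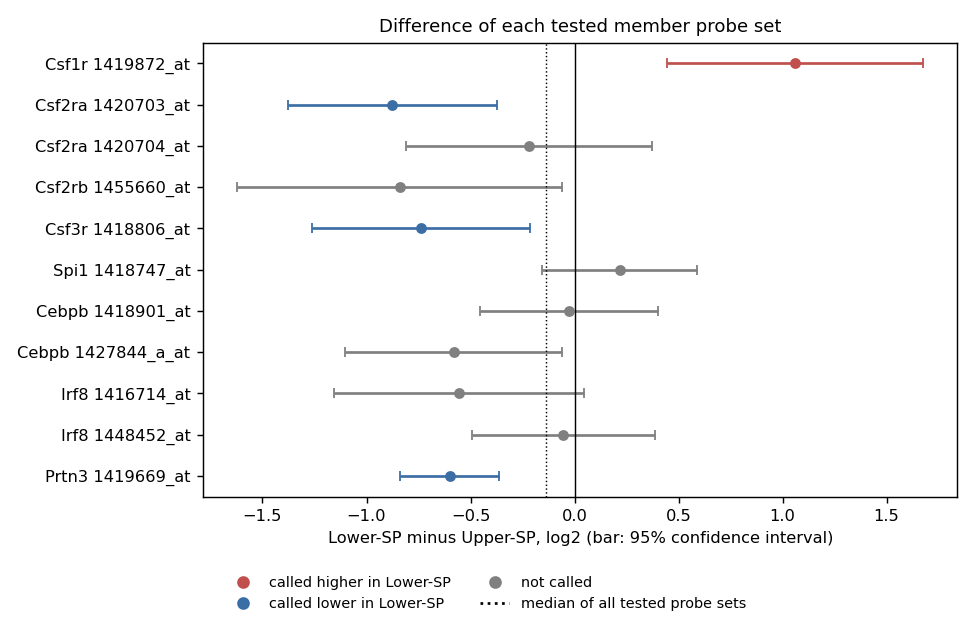
Lower-SP minus Upper-SP difference on the log2 scale for each tested member probe set (points) with its 95% confidence interval (bars); the dotted line is the median of all tested probe sets, -0.14. Csf1r lies right of 0 at 1.06, and the called receptors Csf2ra and Csf3r and the protease gene Prtn3 lie left of 0 between -0.60 and -0.88.

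None of the 5 tested probe sets of the transcription factors was called (limma), and 1 had an unadjusted p under 0.05. Of all 19613 tested probe sets, 28.1% were called either way and 8182 had an unadjusted p under 0.05. Spi1 read 9.38, 9.41 and 9.31 in Lower-SP, against 9.39, 9.05 and 9.01 in Upper-SP. The fractions overlapped at Upper-SP replicate 1. The difference was 0.22 (adjusted p = 0.34), with a 95% interval of -0.16 to 0.59 (smaller in size than 1, a 2-fold change). It was positive in all 17 alternatives and passed in 0 of them.

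Cebpb, a C/EBP factor used when granulocyte production is accelerated, had 2 tested probe sets. The first, 1418901_at, read 11.62, 11.77 and 12.34 in Lower-SP, against 11.98, 11.97 and 11.87 in Upper-SP. Lower-SP replicate 3 was above every Upper-SP array and the other Lower-SP arrays were below, and the difference was -0.03 (95% interval -0.45 to 0.40). Its sign turned with median centring (0.06), quantile normalization (0.13) and cyclic loess (0.17). The second, 1427844_a_at, read 6.52, 6.58 and 6.93 in Lower-SP, against 7.49, 7.12 and 7.16 in Upper-SP. Those fractions did not overlap, but the difference of -0.58 did not pass (adjusted p = 0.090), except without Lower-SP replicate 3 (-0.71, 0.045) and with array weights.

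Irf8, a factor of monocytes and dendritic cells that holds back the granulocyte fate, read 6.89, 7.19 and 7.00 in Lower-SP at probe set 1416714_at, against 7.83, 7.83 and 7.09 in Upper-SP. Upper-SP replicate 3 lay among the Lower-SP values while the other Upper-SP arrays were above all of them. The difference was -0.56 (adjusted p = 0.15), and without Upper-SP replicate 3 it was -0.80 (adjusted p = 0.031). Its other probe set, 1448452_at, lay between 7.01 and 7.17 on all 6 arrays, with a difference of -0.05 (95% interval -0.49 to 0.39). That difference turned positive with each scaling tried (0.03 to 0.05).

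Cebpa, the C/EBP factor needed to form granulocyte and monocyte progenitors, lay at background in both fractions. Its 1 probe set read 2.05, 2.04 and 2.24 in Lower-SP, against 2.01, 2.02 and 2.06 in Upper-SP. No array came near log2 4. A probe set at background bounds the transcript only as far as those probes detect it.

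The granule genes were unlike each other. Prtn3, which encodes the serine protease proteinase 3 of primary granules, read 11.45, 11.55 and 11.42 in Lower-SP, against 12.11, 12.12 and 11.99 in Upper-SP. The values within each fraction lay close together and the fractions did not overlap. The means of 11.47 ± 0.07 in Lower-SP and 12.07 ± 0.07 in Upper-SP differed by -0.60 (SE 0.10, 1.52-fold, adjusted p = 0.0067, limma). It passed in all 17 alternatives, with a difference of -0.65 to -0.40 and an adjusted p of 0.00034 to 0.048. Without Lower-SP replicates 1 and 2 it was -0.65.

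Mpo, the gene of myeloperoxidase, read 4.25, 3.60 and 2.35 in Lower-SP, against 2.24, 2.20 and 2.33 in Upper-SP. It was above log2 4 on Lower-SP replicate 1 alone and was not tested. The 2 arrays with the highest Mpo values are those with the highest neutrophil markers, and Lower-SP replicate 3 was at the level of Upper-SP. The sort kept Lineage-negative, Sca-1-positive and c-Kit-positive cells, and whether cells outside that gate gave any of the Mpo signal was not tested. Hp, the haptoglobin gene of granulocytes, had the same pattern: 6.91, 6.11 and 2.63 in Lower-SP, against 2.039, 2.503 and 2.039 in Upper-SP. Prtn3, which had no such pattern, was below every Upper-SP array on those Lower-SP arrays too.

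**Figure D3:**
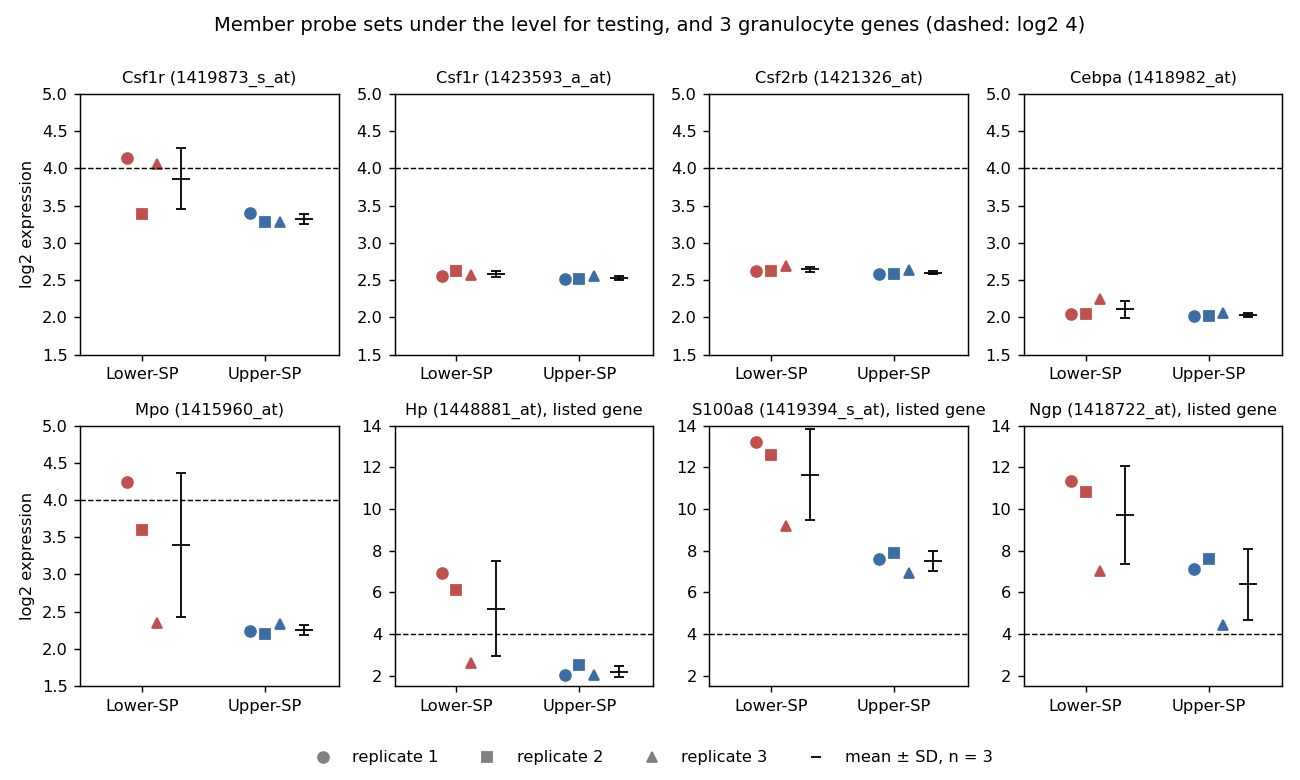
Log2 expression by array for the 5 member probe sets that were not tested and for the granulocyte genes Hp, S100a8 and Ngp, Lower-SP (red) left of Upper-SP (blue); black marks are the mean and SD of 3 arrays and the dashed line is log2 4. Mpo, Hp and S100a8 were highest on Lower-SP replicates 1 and 2, and Cebpa stayed under 2.3 on every array.

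Other genes of primary granules and of granulocyte-monocyte progenitors were mostly under the level for testing. Of 13 annotated, 6 were tested, 2 were lower and 0 higher, with a median difference of -0.75 (1 lower with cyclic loess). Hp, shown above, is on this list but was not tested. Its difference of 3.02, higher in Lower-SP, enters neither the counts nor the median. Among all tested genes, each read through its brightest probe set, 7.05% were higher and 20.7% lower, with a median of -0.24. Elane and Ctsg, the proteases stored beside proteinase 3, and the progenitor gene Ms4a3 did not exceed 2.64 on any array (named after their values were seen). Gstm1, a glutathione transferase, read 9.89, 9.62 and 9.89 in Lower-SP, against 11.24, 11.41 and 10.51 in Upper-SP (-1.26, adjusted p = 0.0091), and a second probe set was also called (-1.20). Its first call was lost without Upper-SP replicate 1 (-1.16, 0.053) and with Lower-SP replicates 1 and 2 omitted jointly (-1.17, 0.096). Serpinb1a, an inhibitor of neutrophil proteases, differed by -1.34 (SE 0.39, adjusted p = 0.037), with 0.18 at another probe set. It passed in 10 of 17 alternatives, missing without Lower-SP replicate 2 (0.096), each Upper-SP replicate (0.085 to 0.11), with no filter and with cyclic loess and the replicate block. With Lower-SP replicates 1 and 2 omitted jointly its difference was -2.11.

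Other receptors of these pathways and stages were called in both directions. Among all tested genes, 7.05% were higher and 20.7% were lower, with a median difference of -0.24. Of 14 annotated partners and ligands, 5 were tested, 1 was higher and 2 were lower (median -0.92), with 0 higher and 1 lower once Lower-SP replicates 1 and 2 were both omitted. Flt3, the receptor tyrosine kinase of early lymphoid and myeloid progenitors, read 8.70, 8.76 and 7.82 in Lower-SP, against 10.74, 10.65 and 10.56 in Upper-SP. It fell by 2.22 (SE 0.26, adjusted p = 0.0025), with no overlap. Kit, the stem cell factor receptor, differed by -0.92 (adjusted p = 0.014) at its brightest probe set and by -0.04 at another. Il6ra, the interleukin-6 receptor chain, read 9.90, 9.83 and 9.80 in Lower-SP, against 9.41, 9.16 and 9.04 in Upper-SP (0.64, adjusted p = 0.020). Flt3 passed in all 17 alternatives. Kit was lost without Lower-SP replicate 2 (0.052), Upper-SP replicate 1 (0.076) or Upper-SP replicate 2 (0.060), and Il6ra without Lower-SP replicate 1 (0.062), Lower-SP replicate 2 (0.062) or Upper-SP replicate 2 (0.070), and both after omitting Lower-SP replicates 1 and 2 jointly (0.081 and 0.14). The ligand genes Csf2, Csf3, Il3, Il5, Il34 and Kitl stayed under log2 4 on every array.

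Of 19 tested genes of receptor signalling, 2 were higher and 4 lower (median -0.095), near the 7.05% and 20.7% of all tested genes. With cyclic loess 4 were higher and 4 lower, and without Lower-SP replicates 1 and 2 it was 1 and 2. The 4 lowered genes were Ptpn6 (-1.21, adjusted p = 0.010), the phosphatase that dampens cytokine receptors, the kinase Jak1 (-1.11, 0.016), Stat5b (-0.91, 0.022), a factor activated by these receptors, and the phosphatase Ptpn11 (-0.73, 0.0083). Ptpn11 differed by 1.20, the other way, at a second probe set that was not called (adjusted p = 0.26), and Ptpn6 differed by -0.29 at its second (0.27). Jak1 had a further probe set called lower (-0.78) and 1 called higher (1.38), so its direction depends on the probe set. Without Upper-SP replicate 1 all 4 missed the threshold (adjusted p 0.053 to 0.10). Jak1 was also lost without Lower-SP replicate 2 (0.051) and Upper-SP replicate 2 (0.062), and Stat5b without Lower-SP replicate 1 (0.066) and Upper-SP replicate 2 (0.088). Once Lower-SP replicates 1 and 2 were both omitted, Ptpn6 alone of the 4 passed (-1.39, 0.043).

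Among transcription factors that act with or against the members, the calls were split between directions. Of 30 genes tested, 4 rose and 7 fell (median -0.05), beside 7.05% and 20.7% of all tested genes. It was 5 higher and 5 lower with cyclic loess, and 3 higher and 2 lower without Lower-SP replicates 1 and 2. Zeb2, a zinc finger repressor used in monocyte and dendritic cell development, was higher at all 3 of its tested probe sets. At the brightest it read 10.04, 9.87 and 9.29 in Lower-SP, against 7.10, 6.99 and 7.14 in Upper-SP. The gap between the fractions was wider than any spread within them, and the difference was 2.66 (SE 0.23, 6.31-fold, adjusted p = 0.0011, limma), with 2.87 and 1.76 at the others. The probe set at 1.76 was under log2 4 on every Upper-SP array and so was tested through Lower-SP alone. The brightest Zeb2 probe set passed in all 17 alternatives, with a difference of 2.22 when Lower-SP replicates 1 and 2 were omitted jointly.

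Gfi1, a repressor that promotes granulocytes and restrains stem cell division, read 5.53, 7.15 and 6.69 in Lower-SP, against 8.18, 8.51 and 8.44 in Upper-SP. It fell by 1.92 (SE 0.40, adjusted p = 0.012), a call lost without Upper-SP replicate 1 (0.052). Bcl6, a repressor best known from germinal-centre B cells, differed by 0.98 (adjusted p = 0.012), and Cbfb, the partner subunit of the Runx factors, by -0.88 (0.015). Both were lost without Upper-SP replicate 1 (0.061 and 0.078), and Cbfb also without Lower-SP replicate 2 (0.055). Once Lower-SP replicates 1 and 2 were both omitted, Gfi1 passed and Bcl6 (0.071) and Cbfb (0.052) did not. Runx1 was called the other way from Cbfb, with 0.74 at its brightest probe set (adjusted p = 0.045, limma), and passed in 9 of 17 alternatives. Its other tested probe sets differed by 0.98 (called higher), 0.08 and -0.30 (not called). The C/EBP genes beside the members did not pass: Cebpd differed by -0.55 (adjusted p = 0.061) and Cebpg by 0.22 (0.43).

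**Figure D4:**
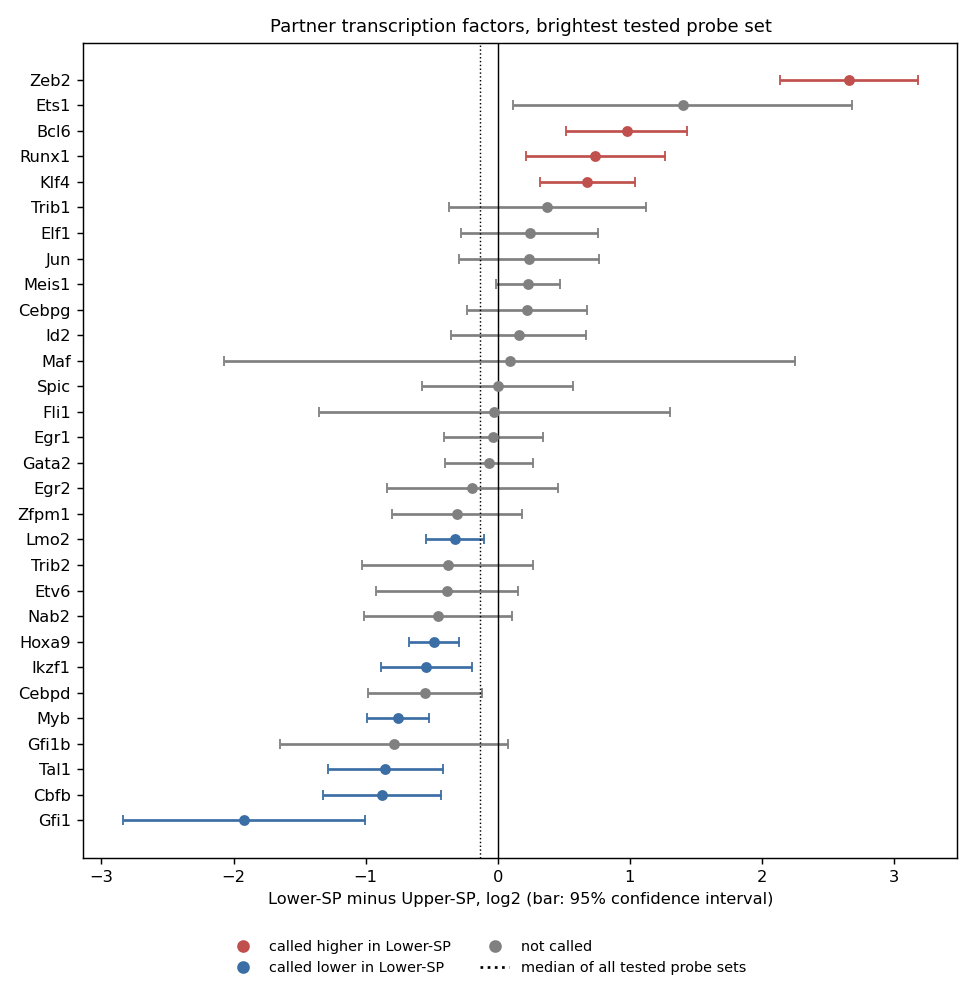
Lower-SP minus Upper-SP difference on the log2 scale for the 30 tested partner transcription factors, each at its brightest tested probe set, with 95% confidence intervals; red points were called higher in Lower-SP, blue lower, and the dotted line is the median of all tested probe sets. Zeb2 stands at the top with 2.66 and Gfi1 at the bottom with -1.92.

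Genes most like each called member were taken as the 3 with the highest Pearson r over the 6 arrays among 9452 other genes. Csf1r was followed most closely by Baz1a (r = 0.997), Ankhd1 (0.995) and Baiap2 (0.993). For Csf2ra they were Usp21 (0.998), Samm50 (0.997) and Zfp445 (0.996), and for Csf3r they were Nsmce1, Phkg2 and Dpy30 (0.999, 0.998 and 0.997). For Prtn3 they were 2810410L24Rik, Sh3bgrl3 and 4933439C10Rik (0.9997, 0.998 and 0.997). These values share the arrays and the split between the fractions, so many genes score high: 298 had r above 0.9 with Csf1r and 1376 with Prtn3. The genes like Csf1r were highest on Lower-SP replicate 1, as Csf1r was, which follows from choosing them by their r with Csf1r. Of these, Baiap2 lay under log2 4 on every Upper-SP array (3.91, 3.99 and 3.93). It was therefore among the genes searched only through its Lower-SP values.

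**Figure D5:**
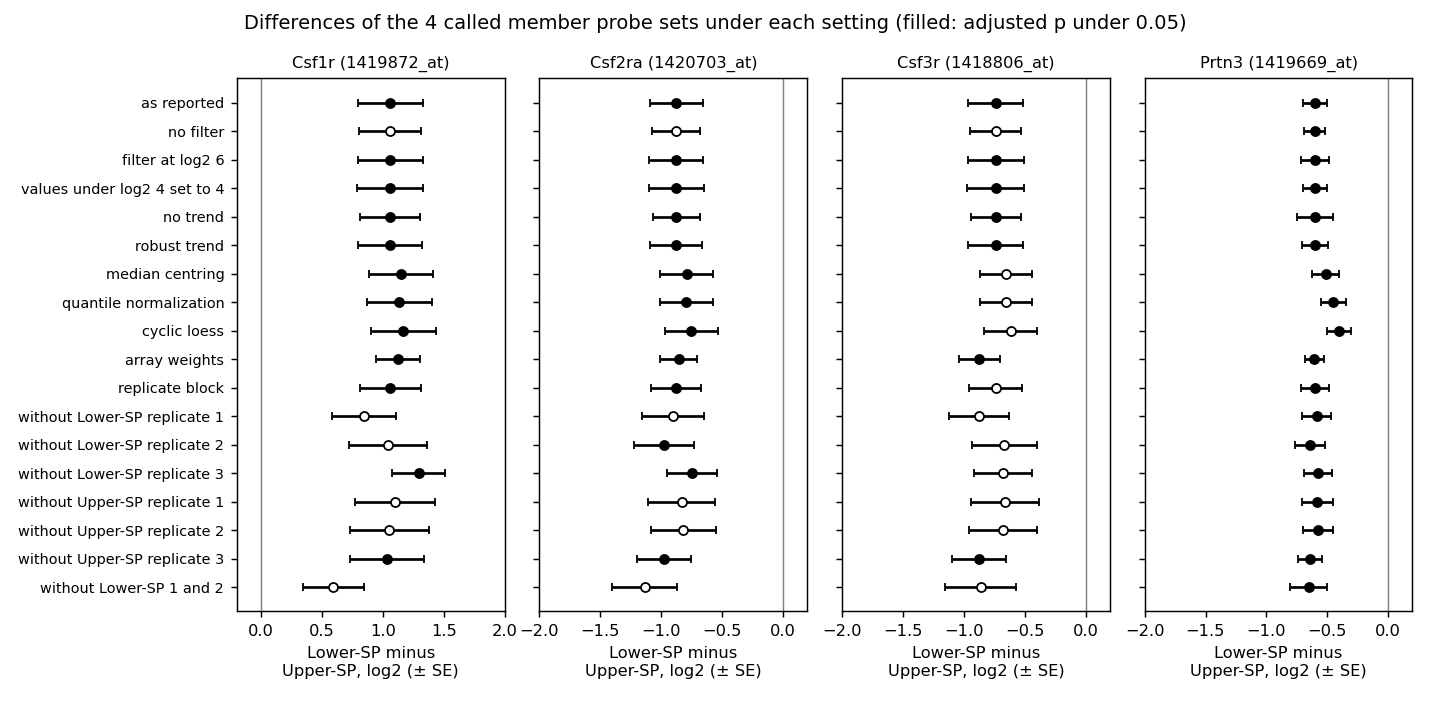
Lower-SP minus Upper-SP difference (points) ± SE (bars) of the 4 called member probe sets under the reported setting and each of 17 alternatives; filled points have an adjusted p under 0.05. Prtn3 is filled throughout, while Csf1r, Csf2ra and Csf3r keep their direction and lose the call in 6, 5 and 11 alternatives.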

How the data were processed

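Lower-SP and Upper-SP stem cells were measured on 3 Affymetrix mouse arrays each. The deposited table holds log2 values of 45101 probe sets on 6 arrays, made by the authors with GCOS 1.0 and GCRMA per the submitters' processing notes, without parameters. GCRMA corrects background by probe sequence and normalizes the arrays to each other, which can even out a general shift between fractions. A genome build was not given in the sources used here.

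Leaving 64 control probe sets aside, 34945 of 45037 had 1 gene symbol, 932 several and 9160 none; 34741 matched a current gene record and 0 symbols changed. Probe sets above log2 4 on at least 3 arrays (19613) were fitted in R 4.3.3 with limma 3.58.1 (lmFit and trended eBayes, a two-sided test with 4 residual degrees of freedom), and p values adjusted by Benjamini-Hochberg over all of them, threshold 0.05. A gene's brightest tested probe set represents it in the lists. The members, lists and tests were chosen with earlier results of these data known. Named are all members, up to 4 passing genes of each pathway list with the largest change, and the 3 genes most correlated with each called member. Related genes are named beside them in places, such as Runx1 beside Cbfb. The fit was tested on simulated data. Promoters are from RefSeq (GRCm38.p6). Alternatives were other filters, a floor, other priors, other scalings, array weights, a replicate block and omitted arrays.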

Additional observations from a re-analysis of the deposited data

How the results depend on the processing

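Directions of the called members held in all 17 alternatives. Prtn3 passed in 17, Csf2ra in 12, Csf1r in 11 and Csf3r in 6. With no filter on low values 1252 probe sets were higher and 1679 lower, with 0 and 1 members (limma; 1 and 5 at an unadjusted p under 0.05), where 45037 probe sets in place of 19613 enter the adjustment. As reported, with the filter, 1 and 5 members had an unadjusted p under 0.05, beside 8182 of the 19613 tested probe sets. That share of the whole array was not computed for the alternatives. With array weights 3749 were higher and 6979 lower, with 1 and 6 members. With Lower-SP replicates 1 and 2 omitted jointly 1191 were higher and 1524 lower, with 0 and 1 members (1 and 3 unadjusted). Leaving out 1 array gave 885 to 2455 higher and 781 to 3942 lower, the lowest without Upper-SP replicate 1 (1215 and 1408 when Upper-SP replicate 2 was omitted, 1441 and 2253 for Lower-SP replicate 1, 1408 and 1706 for Lower-SP replicate 2), and members at 0 to 1 higher and 1 to 4 lower. The cause of these changes was not tested. The Cebpb difference at 1418901_at (-0.03) turned to 0.061 with median centring, 0.126 with quantile normalization, 0.170 with cyclic loess and 0.404 without Lower-SP replicates 1 and 2, and ranged from -0.24 to 0.12 over single arrays left out. That of Irf8 at 1448452_at turned to 0.034, 0.027 and 0.055 with the 3 scalings. Deviations of same-numbered arrays correlated at -0.05, -0.03 and -0.02, so the numbers were not treated as pairs. With the replicate block 1680 probe sets were higher and 2500 lower, with 1 and 2 members; Csf3r (adjusted p = 0.067) was the member lost. Signals under log2 4 limit what can be said of Cebpa and Mpo.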

Other observations

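Markers of other lineages, each gene read through its brightest tested probe set, were few and mostly did not pass. Among all tested genes read the same way, 7.05% were higher and 20.7% were lower. Of 6 tested megakaryocyte genes, 2 were higher and 0 lower, namely the platelet receptor chains Gp1bb and Itgb3. Gp1bb read 4.83, 4.44 and 4.73 in Lower-SP, against 2.88, 3.06 and 3.07 in Upper-SP, so it was tested only through its Lower-SP values and could not have been called lower; its difference of 1.66 was 0.67 with values under log2 4 set to 4. Itgb3 read 8.59, 8.56 and 8.82 in Lower-SP, against 7.44, 6.52 and 7.80 in Upper-SP (1.41, adjusted p = 0.018). Its call was lost when Lower-SP replicate 2 (adjusted p = 0.051), Upper-SP replicate 1 (0.063) or both Lower-SP replicates 1 and 2 (0.10) were omitted.

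Dendritic cell genes had 2 of 8 lower, the class II gene H2-Ab1 (-0.68) and Flt3, which stands in several lists. That is near the 20.7% lower among all tested genes. H2-Ab1 differed by -0.29 at a second probe set, which was not called (adjusted p = 0.50). The H2-Ab1 call was lost on omitting Upper-SP replicate 1 (adjusted p = 0.061) or both Lower-SP replicates 1 and 2 (0.056). T and NK cell genes had 2 of 3 lower. Cd28 (-1.34) was lost on omitting Upper-SP replicate 1 (0.057) or both Lower-SP replicates 1 and 2 (-0.89, 0.084). Nkg7 (-1.14) passed in 12 of 17 alternatives and was lost on omitting Lower-SP replicate 2 (0.097), Lower-SP replicate 3 (0.054), Upper-SP replicate 1 (0.13) or Upper-SP replicate 2 (0.10). Of 3 tested B and plasma cell genes and 3 erythroid genes, 0 were called (limma; 1 and 0 had an unadjusted p under 0.05), and 0 of 10 annotated mast cell, basophil and eosinophil genes reached the level for testing. Of all 9460 tested genes, 3965 had an unadjusted p under 0.05.

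The list of stem and early progenitor markers mixes genes with opposite known behaviour: Cd34 and Flt3 are low in long-term mouse stem cells and higher in multipotent progenitors. Both were lower in Lower-SP (-1.41 and -2.22) and passed in all 17 alternatives. Of the others, Kit and Robo4 were also lower and Ctnnal1 was higher, out of 14 genes tested. Among all tested genes, 7.05% were higher and 20.7% were lower. Procr, Slamf1, Mecom, Hlf, Tek, Fgd5, Hoxb5, Meis1 and Gata2 were not called at their brightest probe set. Hlf differed by 0.007 there, and by -2.03 at a second probe set that was called lower (adjusted p = 0.0016, limma). Robo4 (-1.33) was lost on omitting any 1 Upper-SP array (adjusted p 0.050 to 0.10) and was -2.09 when both Lower-SP replicates 1 and 2 were omitted. Ctnnal1 (1.44) passed in 10 of 17 alternatives. It was lost on omitting Lower-SP replicate 1 (0.073), Lower-SP replicate 2 (0.072) or any Upper-SP array (0.057 to 0.099), and was 0.62 (0.16) when both Lower-SP replicates were omitted.

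Among the listed genes 35 had several tested probe sets, and 2 of them, Jak1 and Syk, had probe sets called in opposite directions. For Syk, a kinase downstream of immune receptors, the difference was 0.70 at the brightest probe set, against -0.81 and -1.45 at the others. Il6st, the signal chain for interleukin-6, had a difference of 0.68 at its brightest probe set, which did not pass, and 2.90 at another that was called, where Upper-SP lay under log2 4. The probe set annotated to both Csf2rb2 and Csf2rb, left out of the members by the rule, stayed between 1.65 and 1.69 on all 6 arrays.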
